A study of Rattus norvegicus with 16 samples.

Results

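The 10 genes described here make and load the peptides that MHC class I shows in the lung: the transporter subunits Tap1 and Tap2, the loading factors Tapbp, Pdia3 and B2m, the immunoproteasome subunits Psmb8, Psmb9 and Psmb10, and the proteasome activator subunits Psme1 and Psme2. They were chosen by name, through the gene symbols of the array's annotation, and make up 10 of the 10411 genes with a probe set of 1 symbol. Their 13 probe sets stand among 15866 in all. Lung RNA came from spontaneously hypertensive (SH) rats, inbred and prone to high blood pressure, and from outbred Sprague Dawley (SD) rats. Rats of each strain were exposed to sulfur dioxide (SO2), an irritant gas, or to air as the control. The 4 groups were SH SO2, SH air, SD SO2 and SD air, each with 4 arrays labelled as biological replicates. No dose, duration or age is given in the sources used here. SO2 was set against air within SH and within SD rats, these SO2 effects were set against each other, and SH was set against SD within each exposure.

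Cells show fragments of their own proteins on MHC class I so that cytotoxic T cells can inspect them. Proteasomes cut the proteins, the TAP transporter moves the peptides into the endoplasmic reticulum, and a loading complex fits them into class I molecules. Interferons, and interferon-gamma above the others, are known to raise the genes of this pathway together, partly through the interferon-stimulated response element (ISRE) in their promoters. In the lung, epithelial cells, endothelium, macrophages and lymphocytes can all carry class I.

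Because the ISRE is a known part of the response of this pathway to interferons, the sites found in the promoters of these genes are shown. The RefSeq promoter table of assembly GRCr8 covers 300 bases around a gene's start and held 9 of the 10 genes, Pdia3 being the other. The ISRE core, GAAA followed after any pair of bases by GAAA again, was searched on both strands and occurred in 7 of these 9 promoters and in 3.92% of the 33469 promoters in the table. Each site is given in 30 bases on the gene's own strand, with the match in capitals, which for a match on the opposite strand begin with TTTC.
Tap1, chr20:4668645-4668674, minus strand: cggtggctgcTTTCGGTTTCttcttcctct
Tap2, chr20:4652318-4652347, minus strand: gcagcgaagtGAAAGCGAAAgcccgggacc
Tapbp, chr20:4967881-4967910, minus strand: tttgaggGAAAATGAAAGTGAAAggaaaca
B2m, chr3:129549170-129549199, plus strand: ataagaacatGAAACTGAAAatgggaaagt
Psmb8, chr20:4657016-4657045, minus strand: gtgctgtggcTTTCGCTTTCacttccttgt
Psmb10, chr19:50743346-50743375, minus strand: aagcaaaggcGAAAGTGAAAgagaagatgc
Psmb10, chr19:50743290-50743319, minus strand: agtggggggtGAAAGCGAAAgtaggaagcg
Psme2, chr15:33052785-33052814, minus strand: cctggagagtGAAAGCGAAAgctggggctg
Tapbp held 2 overlapping matches and Psmb10 held 2 separate ones. The promoters of Psmb9 and Psme1 did not hold these letters in the window. The sites of Tapbp, Psmb8 and Psme2 lie inside the annotated span of the gene, so counting them as promoter sites depends on which start is used. A match is a description of the letters and not a measured binding site.

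Tap2, Psmb8, Tap1 and Psmb9 are neighbours on chromosome 20, inside the MHC region, and Tapbp lies on the same chromosome. Tap1 and Psmb9 are read in opposite directions from adjoining starts, an arrangement known from human cells as a shared promoter. Their promoter windows overlapped by 44 bases. In the 250 bases before Tap1 (chr20:4668544-4668793, minus strand, GRCr8), this shared stretch is the first 44 letters (chr20:4668750-4668793). The ISRE letters and a match to the NF-kB letters (GGGA, any pair of bases, TTCC) are in capitals and lie outside it.
Tap1: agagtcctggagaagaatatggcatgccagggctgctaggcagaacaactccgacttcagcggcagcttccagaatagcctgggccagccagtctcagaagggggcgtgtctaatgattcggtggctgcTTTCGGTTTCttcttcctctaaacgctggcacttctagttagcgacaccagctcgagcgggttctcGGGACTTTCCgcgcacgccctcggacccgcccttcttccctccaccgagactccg
The NF-kB letters occurred in the promoters of Tap1, Tapbp and B2m, and in 1.3% of all promoters in the table. The gamma-activated site TTCNNNGAA was found for Psmb8 among the 9, against 8.87% of all. The letters CCAAT were found for B2m, Psmb8 and Psmb9, against 37.5% of all.

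The arrays carried the marks of lung. The summed signal of 4 alveolar type II markers lay between 77482 and 108571 on every array, and that of 4 alveolar type I markers between 30612 and 41964. Values are the deposited linear signals, which the authors had scaled so that the trimmed mean of each array was near 500.1. Pairs of arrays correlated at 0.93 to 0.97. One array went against its label: on SD air replicate 2, the telomere protein gene Terf2ip read 693.8. The SH air arrays read 424.8 to 733.2 and the remaining SD air arrays 1982 to 2363. Named changes of the members that use this array, read from the brightest probe set, are also given without it, singly or as a range.

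Tapbp encodes tapasin, which holds the class I molecule at the TAP transporter while peptides are tried and exchanged. It was the member called between the strains: its signal (probe set 1369726_at) was higher in SH than in SD rats in SO2. On the SH SO2 arrays it read 767.7, 901.9, 770.5 and 766.2, and on the SD SO2 arrays 544.2, 432.8, 635.0 and 529.5. The lowest SH SO2 array stood above the highest SD SO2 array. The group means were 802 ± 66.9 in SH SO2 and 535 ± 82.8 in SD SO2 (SD, n = 4 each), a log2 difference of 0.58 (SE 0.121, 95% interval 0.32 to 0.83). That is a 1.49-fold difference, with an adjusted p of 0.0231 in limma. Of all 11106 probe sets tested, 0.405% were called higher in SH SO2 than in SD SO2 and 0.81% in either direction. Among the members, 1 of 10 was called and 1 of 10 did not overlap between these groups, against 5.58% of probe sets that did not overlap. At an unadjusted p under 0.05 there were 3 members (Tapbp, Tap2 and Tap1), against 10.1% of probe sets. The call was lost (adjusted p = 0.0665, 0.0621, 0.0992 and 0.0569) without SD SO2 replicate 2, SD SO2 replicate 4, SH SO2 replicate 2 or SH SO2 replicate 3. It was also lost, at an adjusted p of 0.113, when the air arrays were left out of the fit. Of the 2 club cell markers, airway secretory cell genes, Cyp2f4 was lower in SH SO2 (651 ± 126) than in SD SO2 (1573 ± 168), with a log2 difference of -1.26 (adjusted p = 0.000282). In air Cyp2f4 averaged 791 ± 86.4 in SH and 1457 ± 363 in SD rats. The other marker, Scgb1a1, averaged 25812 ± 1254 in SH SO2 and 27975 ± 5798 in SD SO2. The summed signal of the 2 markers was 24643 to 27551 in SH SO2 and 26123 to 38024 in SD SO2. The summed signal of 4 heart muscle markers, an index of other tissue in the sample, was 1719 to 2939 in SH SO2 and 757.1 to 1767 in SD SO2. The 3 of them that were tested were higher in SH SO2 by 0.62 to 0.90 on the log2 scale and did not pass, each at an unadjusted p under 0.05. The part of either marker list in the Tapbp values was not tested.

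In air, Tapbp read 781.2, 747.5, 816.3 and 869.7 on the SH arrays and 669.7, 687.1, 740.6 and 784.7 on the SD arrays. These groups overlapped, and the log2 difference of 0.15 did not pass the test (adjusted p = 0.892), nor did that of 0.13 without SD air replicate 2 (adjusted p = 0.826). Across both exposures Tapbp was higher in SH rats by 0.37 on the log2 scale (SE 0.0855, adjusted p = 0.0316), or 1.29-fold. It was the 1 member called among 10, where 1.53% of all probe sets were called, and the 1 member at an unadjusted p under 0.05, against 11.6% of probe sets. Without SD air replicate 2 the difference was 0.36 (adjusted p = 0.0436), where 2.47% of all probe sets were called. The call was lost (adjusted p from 0.0523 to 0.0827) without SH SO2 replicate 2, SH air replicate 1, 3 or 4, SD SO2 replicate 2 or 4, or SD air replicate 1. It was also lost with a replicate block (adjusted p = 0.0555) and with the title number, a running number in each title, as a covariate (adjusted p = 0.0669). With that covariate 56 probe sets were called, against 170 without it. The probe sequences were not analysed here, so a difference between the strains in RNA level and one in the sequence under the probes cannot be told apart.

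Within SD rats, the 4 SO2 arrays of Tapbp all read below the 4 air arrays. The mean was 535 ± 82.8 in SD SO2 and 721 ± 52.4 in SD air (SD, n = 4 each). The log2 change was -0.43 (SE 0.121), with an adjusted p of 0.366, so it did not pass. Without SD air replicate 2 it was -0.45 (adjusted p = 0.367). The lower SD SO2 arrays serve both this comparison and the strain comparison in SO2. Within SH rats the means were 802 ± 66.9 in SO2 and 804 ± 52.2 in air, and the 95% interval of the log2 change ran from -0.26 to 0.25. The heart muscle sum was 757.1 to 1767 in SD SO2 and 1489 to 3200 in SD air, and its part in this change was not tested.

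**Figure D1:**
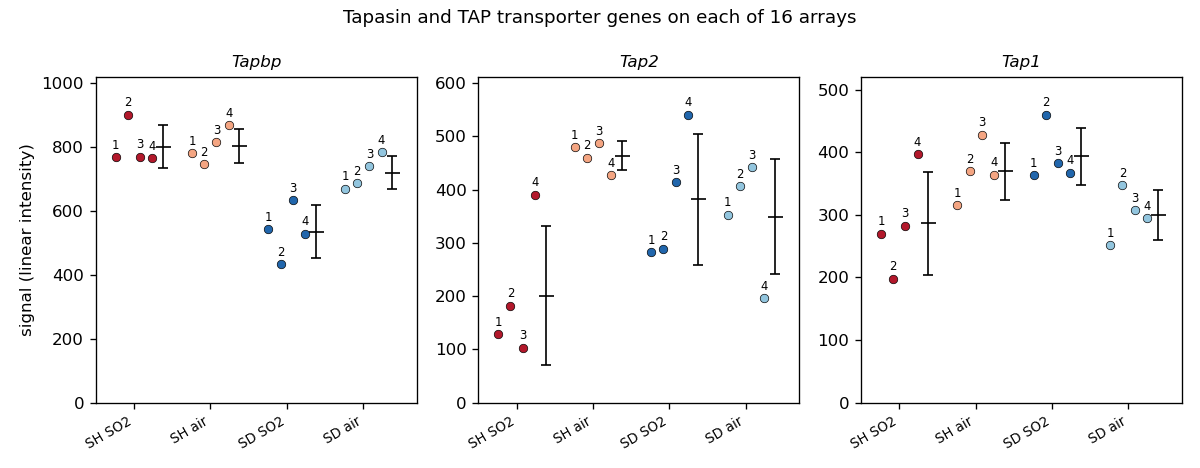
Signal (linear intensity) of Tapbp, Tap2 and Tap1 on each of the 16 arrays, by group, with replicate numbers above the points and the mean ± SD of 4 arrays beside them. Tapbp on the SD SO2 arrays (432.8 to 635.0) lies below every array of the other groups, and Tap2 on the SH SO2 arrays (103.0 to 390.8) lies below every SH air array.

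Tap2 encodes a subunit of the TAP transporter. In SH rats it had the largest change of the 10 genes with SO2, without passing the test. It read 128.2, 182.1, 103.0 and 390.8 on the SH SO2 arrays and 479.7, 459.9, 487.7 and 427.1 on the SH air arrays. Each SH SO2 array was below each SH air array, but replicate 4 was close to them and the other 3 were far below. The means were 201 ± 131 in SH SO2 and 464 ± 27.0 in SH air (SD, n = 4 each). The log2 change was -1.31 (SE 0.306, 95% interval -1.95 to -0.67) and the adjusted p was 0.402. It ranked 8 by p-value among the 11106 probe sets. Without SH SO2 replicate 4 the change was -1.67 and passed in limma (adjusted p = 0.0419), where 1 of 11106 probe sets was called. With any other SH array left out, the change lay between -1.35 and -1.08 and did not pass.

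In SD rats Tap2 read 282.6, 288.9, 413.8 and 540.9 in SO2 and 352.9, 406.7, 441.9 and 196.4 in air. These groups overlapped widely, with a log2 change of 0.13 (95% interval -0.51 to 0.77). It was 0.22 without SD air replicate 2 and turned to -0.11 without SD air replicate 4. The difference between the strains' SO2 effects was -1.44 for Tap2 (SE 0.433) and did not pass (adjusted p = 0.981). It was -1.53 without SD air replicate 2 (adjusted p = 0.81). In SO2 the log2 difference of Tap2 between SH and SD rats was -0.99 (SE 0.306, adjusted p = 0.165), and the arrays overlapped. That comparison passed in limma without SH SO2 replicate 4 (-1.35, adjusted p = 0.0163), where 94 of 11106 probe sets were called. Averaged over both strains, the log2 change of Tap2 with SO2 was -0.59 (SE 0.217, adjusted p = 0.448), and -0.55 without SD air replicate 2.

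Measures of the samples moved within the SH arrays as well. The actin 3′ to 5′ signal ratio, which is raised when RNA is degraded, was 3.12, 1.86, 1.29 and 2.27 on SH SO2 replicates 1 to 4, and 1.49 to 2.36 on the SH air arrays. The array's 10th percentile was 22.5, 26.8, 24 and 17 on SH SO2 replicates 1 to 4. On the SH air arrays it was 17.6 to 21.05. With the actin ratio and this percentile as covariates, the Tap2 change in SH rats was -1.08. The summed signal of the macrophage markers Cd68 and Csf1r was 2460 to 3109 in SH SO2 and 3197 to 3451 in SH air. That of 4 leukocyte markers was 4667 to 6105 in SH SO2 and 5354 to 6337 in SH air. Their part in the Tap2 values was not tested. In whole lung, fewer cells that express a gene and less RNA per cell cannot be told apart.

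Tap1 encodes the partner subunit of the transporter. Its brighter probe set, 1388149_at, read 269.8, 198.2, 282.8 and 397.0 on the SH SO2 arrays and 315.4, 369.7, 428.2 and 364.3 on the SH air arrays. These overlapped through SH SO2 replicate 4, the array that was also highest of its group for Tap2. The log2 change was -0.38 (SE 0.175, adjusted p = 0.949). It ran from -0.54 without SH SO2 replicate 4 to -0.23 without SH SO2 replicate 2, and was -0.23 with the actin ratio and 10th percentile as covariates. In SD rats the order was the other way: Tap1 read 363.2, 460.2, 382.9 and 367.3 in SO2 and 251.3, 347.7, 307.7 and 294.9 in air. The SD groups did not overlap, with a log2 change of 0.37 (SE 0.175, adjusted p = 0.591), and of 0.44 (adjusted p = 0.551) without SD air replicate 2. The summed signal of 8 T and natural killer cell markers was 1769 to 3675 in SD SO2 and 1779 to 2918 in SD air, with Cd3e at a mean of 87.9 over all arrays. In SH rats the sum was 1684 to 2329 in SO2 and 1832 to 2233 in air. In SO2 the 5 markers tested had a median log2 difference of -0.48 between SH and SD rats, with 0 of 5 above 0. Their median difference between the strains' SO2 effects was -0.59, with 1 of 5 above 0. In each, 0 of 5 were called, against 0.81% and 0% of all probe sets. The part of these markers in the Tap1 and Tap2 values was not tested.

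For Tap1 the SO2 effect in SH minus that in SD was -0.75 on the log2 scale (SE 0.247), which did not pass (adjusted p = 0.981). Without SD air replicate 2 it was -0.82 (adjusted p = 0.81). In SO2 the strain difference was -0.47 (SE 0.175, adjusted p = 0.299). In air it was 0.29 (SE 0.175, adjusted p = 0.84), and 0.36 (adjusted p = 0.582) without SD air replicate 2. The dimmer Tap1 probe set, 1375379_at, read 14.7 to 139.8 and was among the 30% of probe sets left out as dim.

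Pdia3 encodes a thiol oxidoreductase that is bound to tapasin in the loading complex and also folds other glycoproteins. Its brighter probe set read 3683.6, 3488.9, 3231.9 and 4550.1 on the SH SO2 arrays and 4106.1, 4627.4, 4860.5 and 4413.0 on the SH air arrays. The groups overlapped through SH SO2 replicate 4. The log2 change was -0.28 (SE 0.124, adjusted p = 0.949). It lay between -0.15 and -0.14 with the probe sets averaged, with the actin ratio and 10th percentile as covariates, or with the title number as a covariate. In SD rats Pdia3 averaged 4233 ± 396 in SO2 and 4050 ± 623 in air (SD, n = 4 each), with a log2 change of 0.07 and overlapping arrays. Its second probe set changed by -0.02 in SH and -0.05 in SD rats.

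B2m encodes the light chain shared by class I molecules. The brighter of its probe sets read 14777 to 20205 in SH SO2, 16430 to 18518 in SH air, 15015 to 19806 in SD SO2 and 16116 to 19129 in SD air. The 4 groups lay on top of one another. The log2 change with SO2 was -0.02 in SH (95% interval -0.24 to 0.21) and 0.02 in SD (-0.20 to 0.25). Its second probe set, 1371440_at, gave 0.08 in SH and 0.10 in SD, also without passing.

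The immunoproteasome subunits take the places of constitutive catalytic subunits and change which peptides are cut. Psmb8 replaces Psmb5, Psmb9 replaces Psmb6, and Psmb10 replaces Psmb7. Psmb8 read 1412 to 2078 in SH SO2, 1777 to 2522 in SH air, 1488 to 1892 in SD SO2 and 1494 to 2362 in SD air. Psmb9 read 834.4 to 986.8 in SH SO2, 736.9 to 1006 in SH air, 890.7 to 1116 in SD SO2 and 843.4 to 944.7 in SD air. Psmb10 read 564.7 to 858.7 in SH SO2, 658.6 to 977.1 in SH air, 758.6 to 1036 in SD SO2 and 663.3 to 1002 in SD air. In each of these genes the SO2 and air arrays overlapped in both strains. Psmb9 in SD rats had the third smallest p of the members there, with a log2 change of 0.18 (SE 0.118, adjusted p = 0.715), or 0.15 without SD air replicate 2.

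The strain differences of these subunits were also within the spread. Over both exposures Psmb10 differed between SH and SD by -0.20 (SE 0.118, adjusted p = 0.562) and Psmb9 by -0.11 (SE 0.0837, adjusted p = 0.699). Without SD air replicate 2 these were -0.25 for Psmb10 and -0.12 for Psmb9. With the title number as a covariate they were -0.00696 for Psmb10 and -0.04 for Psmb9; Psmb9 was -0.06 with the actin ratio and 10th percentile as covariates and -0.07 without SH air replicate 1. Over both strains Psmb8 differed between SO2 and air by -0.15 (SE 0.114, adjusted p = 0.74), or -0.20 without SD air replicate 2. It was -0.33 with the title number as a covariate, and -0.09 without SH SO2 replicate 1, SH air replicate 2 or SD air replicate 3. Set against its constitutive counterpart on the same array, Psmb8 over Psmb5 changed with SO2 by -0.09 in SH and -0.08 in SD rats on the log2 scale. Psmb10 over Psmb7 changed by 0.06 in SH and 0.16 in SD. These ratios were chosen after the members' values were seen, and the SDs within groups were 0.23 to 0.42. With 4 arrays a group the smallest two-sided exact permutation p is 0.0286, which could not pass alone after adjustment over the 8 such comparisons, so no test is read from them.

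Psme1 and Psme2 encode the alternating subunits of the interferon-inducible cap that opens the proteasome. Psme1 read 3463 to 4200 in SH SO2, 4037 to 4421 in SH air, 3030 to 4525 in SD SO2 and 3277 to 4469 in SD air. Psme2 read 1112 to 1727 in SH SO2, 1185 to 1567 in SH air, 1300 to 1402 in SD SO2 and 1206 to 1533 in SD air. Both genes overlapped between every pair of groups compared. The Psme1 log2 change with SO2 was -0.12 in SH and -0.02 in SD rats, and that of Psme2 was 0.07 in SH and 0.03 in SD.

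**Figure D2:**
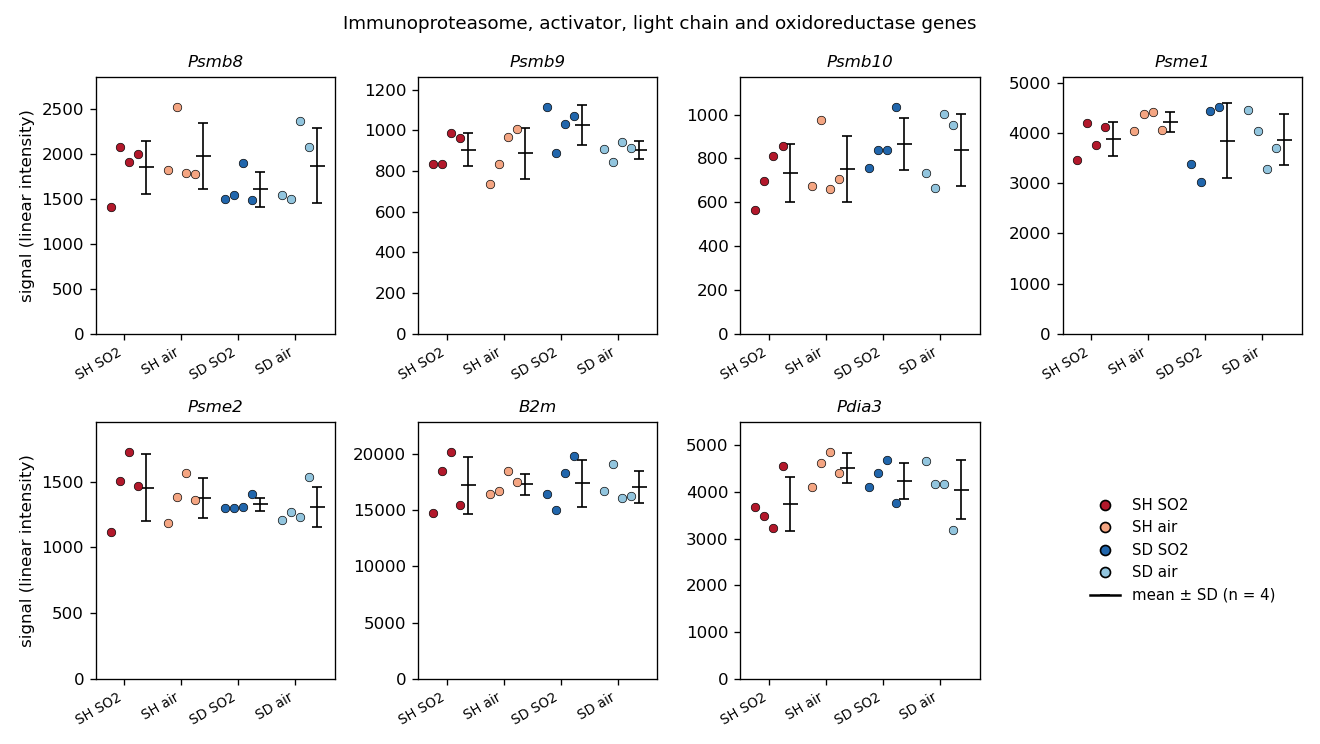
Signal (linear intensity) of Psmb8, Psmb9, Psmb10, Psme1, Psme2, B2m and Pdia3 on each of the 16 arrays, by group, with the mean ± SD of 4 arrays. The groups overlap in every panel, as for B2m at 14777 to 20205 in SH SO2 and 16430 to 18518 in SH air.

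With SO2 in SH rats, 0 of the 10 genes passed, and 0% of all probe sets did. At an unadjusted p under 0.05 there were 3 members (Tap2, Pdia3 and Tap1), against 537 or 4.84% of probe sets. One member, Tap2, did not overlap between the groups, against 4.17% of probe sets. The other 7 members changed by -0.12 to 0.07, and their 95% intervals together spanned -0.43 to 0.34. With the title number as a covariate, Psmb8 changed by -0.54, Psmb10 by -0.50 and Psme2 by -0.23. That number was 40 to 43 in SH air, and 44 and 51 to 53 in SH SO2, so it follows these groups closely. The median of the members was -0.07, against 0.02 over all probe sets. In simulated data of the same size, 50, 100 and 50 log2 changes of 0.5, 1 and 2 were planted. The test found 38%, 80% and 100% of these. The adjustment is more lenient when many probe sets change, so these shares do not carry over to this comparison, where 0% passed.

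With SO2 in SD rats, 0 of 10 passed and 0% of all probe sets did. At an unadjusted p under 0.05 there were 2 members (Tapbp and Tap1), against 915 or 8.24% of probe sets. These 2 did not overlap between the groups, Tap1 higher and Tapbp lower, against 2.07% of probe sets higher, 1.47% lower and 3.54% either way. Apart from these and Psmb9, the other 7 members changed by -0.20 to 0.13, or by -0.30 to 0.22 without SD air replicate 2. The median of the members was 0.04, against 0.02 over all probe sets.

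For the difference between the strains' SO2 effects, 0 of 10 passed and 0% of all probe sets did. The members at an unadjusted p under 0.05 were Tap2, Tap1 and Tapbp, against 516 or 4.65% of probe sets. For Tapbp the term was 0.42 (SE 0.171, adjusted p = 0.981), and 0.44 without SD air replicate 2 or 0.26 with the title number as a covariate. Between the strains in air, 0 of 10 passed, 0% of probe sets did, and 0 members were at an unadjusted p under 0.05, against 709 or 6.38% of probe sets. In air 0 members did not overlap between the strains, against 4.02% of probe sets. Tap2 differed by 0.45 (SE 0.306, adjusted p = 0.86), or 0.54 without SD air replicate 2 and 0.21 without SD air replicate 4. Pdia3 differed by 0.16 (SE 0.124, adjusted p = 0.883), or 0.18 without SD air replicate 2 and 0.05 without SD air replicate 4. It was 0.05 with the probe sets averaged and 0.03 with the title number as a covariate. Leaving out SD air replicate 2 raised the probe sets called in air to 86 (0.774%), with 0 members among them. For SO2 over both strains, 0 of 10 members and 0% of probe sets passed; at an unadjusted p under 0.05 there were 2 members, Tap2 and Tapbp (-0.22, SE 0.0855, adjusted p = 0.504, or -0.23 without SD air replicate 2), against 939 or 8.45% of probe sets.

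**Figure D3:**
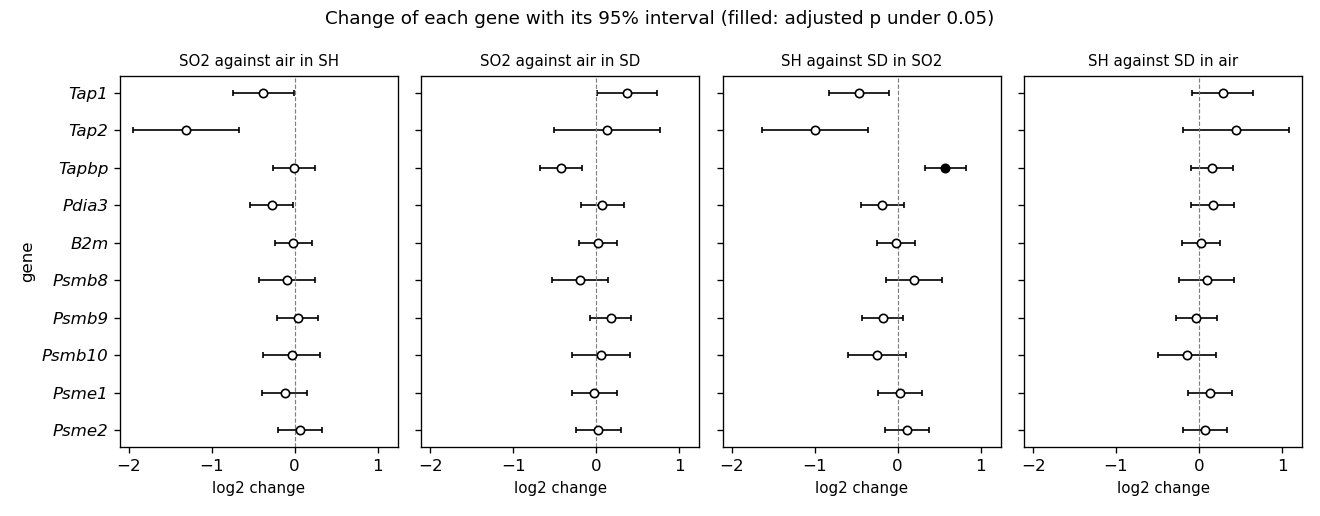
Log2 change of each of the 10 genes with its 95% interval in 4 comparisons, with SO2 over air or SH over SD and filled points where the adjusted p was under 0.05. Tapbp in SO2 (0.58, SH over SD) is the filled point, and the Tap2 interval in SH rats (-1.95 to -0.67) is the farthest from 0.

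**Figure D4:**
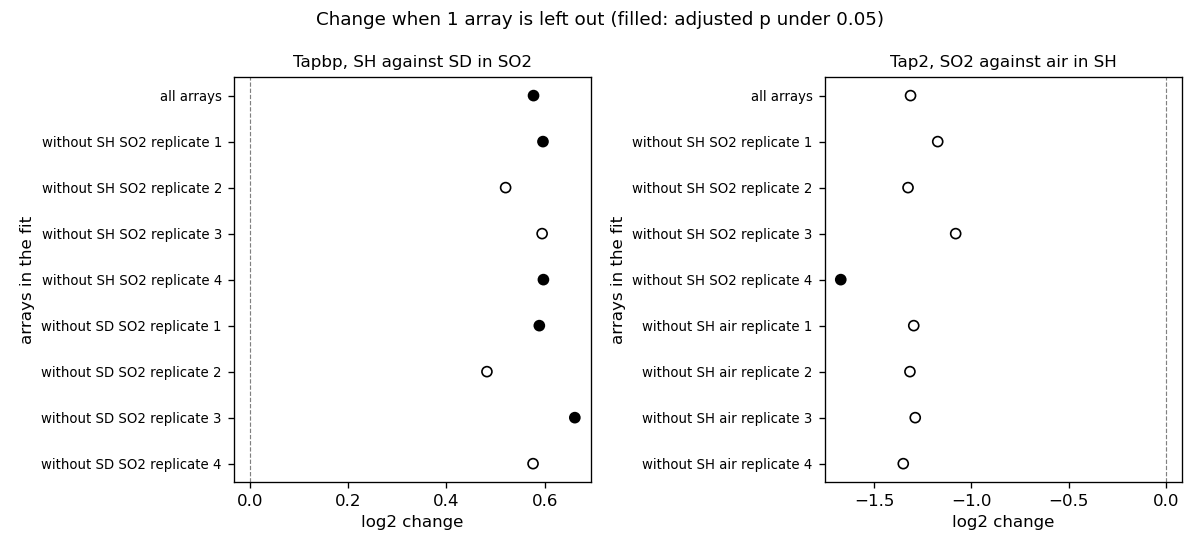
Log2 difference of Tapbp between SH and SD rats in SO2, and log2 change of Tap2 with SO2 in SH rats, with all arrays and with each array of the groups compared left out in turn. Filled points have an adjusted p under 0.05; Tapbp stays between 0.48 and 0.66, and Tap2 passes without SH SO2 replicate 4 at -1.67.

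Whether the members moved together from array to array was asked with values centred on their group means, so that only differences between replicates counted. Of 20 pairs computed, 10 between members and 10 with the interferon regulator Irf1, 0 passed after adjustment for Pearson's r or Spearman's rho. Psmb8 and Psmb10 gave the largest r, 0.785 (permutation p = 0.00644, adjusted 0.129), with a rho of 0.685 (permutation p = 0.0169, adjusted 0.169). Without the 2 arrays farthest from the median of Psmb8, r was 0.637 (permutation p = 0.0711). Irf1 and Psmb8 gave an r of 0.526 (permutation p = 0.0711, adjusted 0.575) and a rho of 0.665 (permutation p = 0.0124, adjusted 0.169). Tap1 and Psmb9, whose promoter windows overlap, gave an r of 0.235 (permutation p = 0.421).

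The other genes of the pathway were counted from lists. The constitutive proteasome core had 0 of 13 genes called in every comparison, and other genes of class I processing and loading had 0 of 15. In SH rats with SO2, the median log2 change was -0.09 in the core and 0.04 in the other processing genes, against 0.02 over all probe sets. In SD rats it was -0.00136 in the core and 0.05 in the other processing genes, against 0.02 over all. Genes of MHC class II had 0 of 7 called in every comparison.

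Between the strains, called genes were found among the interferon genes and the class I heavy chains. In SO2, 1 of 12 interferon regulators was called higher in SH than in SD rats: Irf7, a transcription factor of the interferon response, at 2236 ± 693 in SH and 1090 ± 324 in SD (SD, n = 4 each). Its log2 difference was 1.01 (adjusted p = 0.0368). One was lower: Ifngr1, the ligand-binding chain of the interferon-gamma receptor, at 1938 ± 54.7 in SH and 3008 ± 361 in SD, a log2 difference of -0.62 (adjusted p = 0.00679). Of 17 interferon-induced genes, 1 was called, the antiviral GTPase Mx2, with a mean of 1017 in SH SO2 and 44.2 in SD SO2, the second of these in the range of dim probe sets. Over both exposures 5 of 17 were higher in SH and 0 lower, among them Ifit3 (0.80, adjusted p = 0.00729), where 1.53% of all probe sets were called in either direction. The median of the 17 was 0.23 over both exposures, against 0.00159 over all probe sets. Without SD air replicate 2, 6 of 17 were higher over both exposures (2.47% of all probe sets called), and in air 3 of 17 were, Mx2, Ifit3 and Usp18 (0.774% of all probe sets called).

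Of 11 class I genes, 3 were called higher and 1 lower in SH than in SD rats in SO2, with the same counts over both exposures. Of all probe sets, 0.81% were called in SO2 and 1.53% over both exposures. RT1-A3 was higher by 1.35 (adjusted p = 0.00299) and RT1-T24-4 was lower by a log2 difference of -1.87 (adjusted p = 0.000282) in SO2. Class I genes vary in sequence between strains and resemble one another, so these probe sets are uncertain. In the SO2 comparisons of each strain and in the difference between them, 0 genes of these lists were called in limma. The 17 interferon-induced genes had a median log2 change with SO2 of 0.09 in SH and 0.25 in SD rats, against 0.02 over all probe sets in each strain. At an unadjusted p under 0.05 there were 1 of 17 in SH, against 4.84% of all probe sets, and 5 of 17 in SD, against 8.24%. Of the 5, Irgm2, Gbp2, Ifi27 and Mx1 were above 0, and Mx2 was below 0 (-1.91). All 5 are named, and 0 of them were called. The count without SD air replicate 2 is not given here. Mx2 averaged 44.2 ± 12.6 in SD SO2, in the range of dim probe sets, and 284 ± 264 in SD air (SD, n = 4 each). Its change without SD air replicate 2 is not given here. The 11 class I genes had a median of 0.03 in SH and -0.10 in SD, with 0 of 11 in SH and 1 of 11 in SD at an unadjusted p under 0.05. Irf1 itself read 1346 ± 89.0 in SH SO2 and 1339 ± 47.7 in SH air (SD, n = 4 each), a log2 change of 0.01.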

How the data were processed

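Lung RNA of 16 rats was measured on Affymetrix arrays. The deposited values are linear intensities, 1 per probe set and array; the authors' software was GCOS, per the submitters' processing notes, without a stated version or algorithm. Precision is limited by the number of arrays. The limma p-values set a difference between groups against the spread between animals labelled as biological replicates, estimated over the 4 groups together.

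Of 15923 probe sets, 57 controls were left out. Values were taken as log2(intensity + 16), which understates changes of dim probe sets. The 30% with the lowest mean were dropped, leaving 11106 probe sets and 8060 genes; 12 of the 13 member probe sets and 10 of 10 genes stayed. limma 3.58.1 in R 4.3.3 fitted 4 group means (12 residual degrees of freedom, eBayes with trend), with Benjamini-Hochberg adjustment over all probe sets and a threshold of 0.05, in 7 comparisons. A gene was read from its brightest probe set.

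Members and lists were chosen with earlier results of these data known. Every member is described; each comparison names the called members and the 3 of smallest p. Of other lists, up to 2 called genes were to be named. Beyond that rule, 3 interferon-induced genes are named in air without SD air replicate 2, and 5 uncalled ones with SO2 in SD rats. The level of Irf1 is also given. Pairs were permuted within groups 100000 times, two-sided. One item planned for the pairs is not reported here; the pairs with Irf1 were added after the data were seen. The fit was tested on simulated data. Alternatives were other offsets, scalings, filters, eBayes settings, covariates, a replicate block and each array left out. Figures used matplotlib 3.10.9 in Python 3.11.15.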

Additional observations from a re-analysis of the deposited data

Results flagged for a closer look

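In 52 checks of 1 probe set in 1 group of 4 arrays, 7 had an array far from the other 3, where chance alone gives about 5%. Tapbp read 901.9 on SH SO2 replicate 2, against 766.2 to 770.5 on the other arrays of that group. Psmb8 read 2521.9 on SH air replicate 2, against 1776.7 to 1818.9. Psmb10 was high on the same array, at 977.1 against 658.6 to 706.6. Psmb8 read 1892.2 on SD SO2 replicate 3, against 1488.2 to 1537.2, and Psme2 read 1401.8 on SD SO2 replicate 4, against 1299.8 to 1309.6. The second probe set of B2m was low on SD air replicate 1, at 4357.8 against 5490.2 to 5722.6. The dimmer probe set of Pdia3 read 344.8 on SD SO2 replicate 1, against 249.4 to 257.4.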

How the results depend on the processing

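Of the 21 changes named as called or of smallest p, 0 turned their direction under the alternatives run. Of the other 49 changes of members, 28 did in at least 1 of them. The 21 were picked by p-value in these same data, so this contrast follows from the choice and is no sign of robustness. With SO2 in SH rats, 0 to 1 members were called over the arrays left out in turn, and 0 to 1 of all 11106 probe sets. Between the strains in SO2 the count of members ran from 0 to 2 over the arrays left out, where 50 to 94 of all probe sets were called. It was 0 with only the arrays compared, where 79 probe sets were called. Over both exposures it ran from 0 to 1 over the arrays left out; it was 0, with Tapbp short of the threshold, without SH air replicates 1, 3 or 4, SD air replicate 1, SD SO2 replicates 2 or 4, or SH SO2 replicate 2 (adjusted p 0.0523 to 0.0827). That count was also 0 with a replicate block (Tapbp 0.37, adjusted p = 0.0555) and with the title number as covariate (adjusted p = 0.0669). Of all probe sets, 112 to 274 were called over both exposures with 1 array left out. The replicate numbers follow the order of the titles within each group, so they need not mark pairs. Deviations of same-numbered arrays correlated at -0.249 to 0.151. Arrays of unlike number were not set beside them, so these values cannot decide whether samples were paired. The replicate block changed no other call. Tapbp in SO2 passed in 17 of 22 settings and over both exposures in 20 of 29, and Tap2 in SH rats passed in 1 of 22. The counts for SO2 in SD rats, the strain difference in the SO2 effect, the strains in air and SO2 over both strains were 0 in every setting run, with limma. With 4 arrays a group, changes of 0.5 on the log2 scale were mostly missed in simulation.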
